A study of Mus musculus with 2 samples.

Results

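Ly6a, Ly6c1, Ly6c2, Ly6d and Ly6e encode 5 small surface proteins of the mouse Ly6 family, and they were followed by name through the hepatic immune cells of TG and WT mice. All 5 were among the 13528 genes of the filtered count table. Ly6 proteins carry a compact three-finger fold and are usually held on the outer face of the membrane by a glycosylphosphatidylinositol (GPI) lipid anchor. In immunology they are best known as labels of cell state. Ly6a is Sca-1, carried by stem and progenitor cells and increased on lymphocytes by interferons. Ly6c1 and Ly6c2 together make the Ly6C antigen, which marks inflammatory monocytes, plasmacytoid dendritic cells (pDC) and many memory and effector CD8 T cells. Ly6d marks lymphoid progenitors committed to B cells and later B cells and pDC. Ly6e, also called Sca-2 or TSA-1, is found on thymocytes and on many blood cell types and is interferon-inducible. In mm10 (GRCm38, the build of the deposited counts) all 5 genes lie on chromosome 15 within 349.915 kb. Ly6d is at 15:74762056-74763620 on the minus strand, Ly6e at 15:74955051-74959905 on the plus strand, Ly6a at 15:74994877-74998031, Ly6c1 at 15:75044018-75048830 and Ly6c2 at 15:75108158-75111970, the last 3 on the minus strand. The relatives Ly6i and Ly6g lie between or just beyond them.

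The study asked which liver immune cells differ in a mouse model of primary biliary cholangitis. TG mice (dnTGFβRII) are C57BL/6 mice that express a dominant-negative TGFβ receptor II from the mouse CD4 promoter, so the transgene is active in T cells, and WT mice are C57BL/6 without it. The labels give an age of 10 weeks for both, and the study's methods a slightly lower one. CD45+ liver cells were stained with 49 antibodies, tagged by mouse strain and loaded on BD Rhapsody cartridges, and transcripts were counted as unique molecular identifiers (UMIs). TG cells were captured in 1 library together with cells of IFN-γ ARE-Del-/- mice, and WT cells in another with cells of P40-/-IL-2Ra-/- mice. With 1 library per genotype there is no replicate, the genotype and the capture library cannot be told apart, and no test was made. The number of mice in a pool was not given in the sources used here. Intervals below are 95% and cover counting error only.

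The authors named 4647 TG cells (18498477 UMIs, median 3298 per cell) and 7282 WT cells (22216379 UMIs, median 2653.5), in 30 clusters under 14 cell type names. A level is given as UMIs per 1000000 of all UMIs (CPM), summed over the cells of a type in a library. Cell numbers shared by both libraries amounted to 36. In 9 cell types both libraries held at least 50 cells. Several names did not match their markers. Cells named NK carried Cd3e, a T cell receptor subunit, at 1608 CPM in cluster 3 and 1401 in cluster 11 of TG, against 122 and 130 CPM in WT (22 WT cells in cluster 11), while in cluster 8 it was at 133 CPM in TG and 67.5 in WT. The cells named monocyte were all of cluster 5, led by Il1b, Cxcl2, Csf3r and Cxcr2, and the 6 neutrophil markers summed to 63616 CPM in TG and 42926 in WT there, so they are called cluster 5 below. Cells named immature B (cluster 10) had less Vpreb3, a relative of the surrogate light chain genes, than mature B cluster 1, at 17.2 against 143.5 CPM in TG and at 44.2 against 243 in WT. The authors' name immature B is kept below as a label. Cluster 17, filed under mature B, carried Cd3e at 728 CPM in TG and 609 in WT beside Cd79a at 2456 and 1954. The macrophage name pooled cluster 15, cluster 22, which carried the dendritic cell genes Xcr1 (448 CPM in TG, 512 in WT) and Clec9a, and cluster 27, which carried the Kupffer cell genes C1qa and Timd4 and held 23 WT cells and 0 TG cells. Cluster 15, with most of the TG cells of that name, carried C1qa at 0 CPM in TG and 41.2 in WT, against 2046 in cluster 27. Its leading genes included Ms4a6c, Ace and Csf1r, and the macrophage name is kept below as a label. CD8αα T cells (cluster 2) carried Cd8a at 984 CPM in TG and 1104 in WT with little Cd8b1 (35.5 and 40). Klra7 and Gzmb were among their leading genes in both libraries, and the NK receptor gene Ncr1 was at 192 and 229 CPM. Haemoglobin Hbb-bs stood at 1351 CPM in CD8αα T cells and 864 in NK cluster 3 of WT, and at or under 1.3 CPM in those clusters of TG. In CD8αβ T cluster 4 and NK cluster 8 of WT it was at 120 and 181 CPM, with 0 UMIs in TG.

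Ly6a was past 2-fold higher in TG in 4 of 9 cell types, and Ly6c2 was past 2-fold higher in CD8αβ T cells and in cells named NK. Ly6c1 went the other way, lower in TG in CD4 T and NKT cells. Ly6d was within 2-fold between the libraries in B cells and pDC, and Ly6e was past 2-fold in 0 cell types, with its widest gap, lower in TG, in cells named NK. A TG over WT ratio was called when past 2-fold with at least 20 UMIs over both libraries. Of 45 pairs of a member and a cell type, 39 reached that minimum, 11 were called higher in TG and 4 lower, where 7.53% of all gene ratios in the same cell types were called (4.06% higher, 3.46% lower). By cell type that share was 8.69% in CD4 T, 7.83% in CD8αα T, 7.2% in CD8αβ T, 8.23% in NK, 6.71% in NKT, 4.75% in mature B, 6.04% in immature B, 9.59% in macrophages and 10.6% in cluster 5. With at least 100 UMIs, 6 of 31 were higher and 3 lower, against 2.83% of all (1.62% higher, 1.21% lower). Pairs that share a gene or a cell type are not independent, and 4 of the 11 higher calls were Ly6d in cells other than B cells and pDC.

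**Figure D1:**
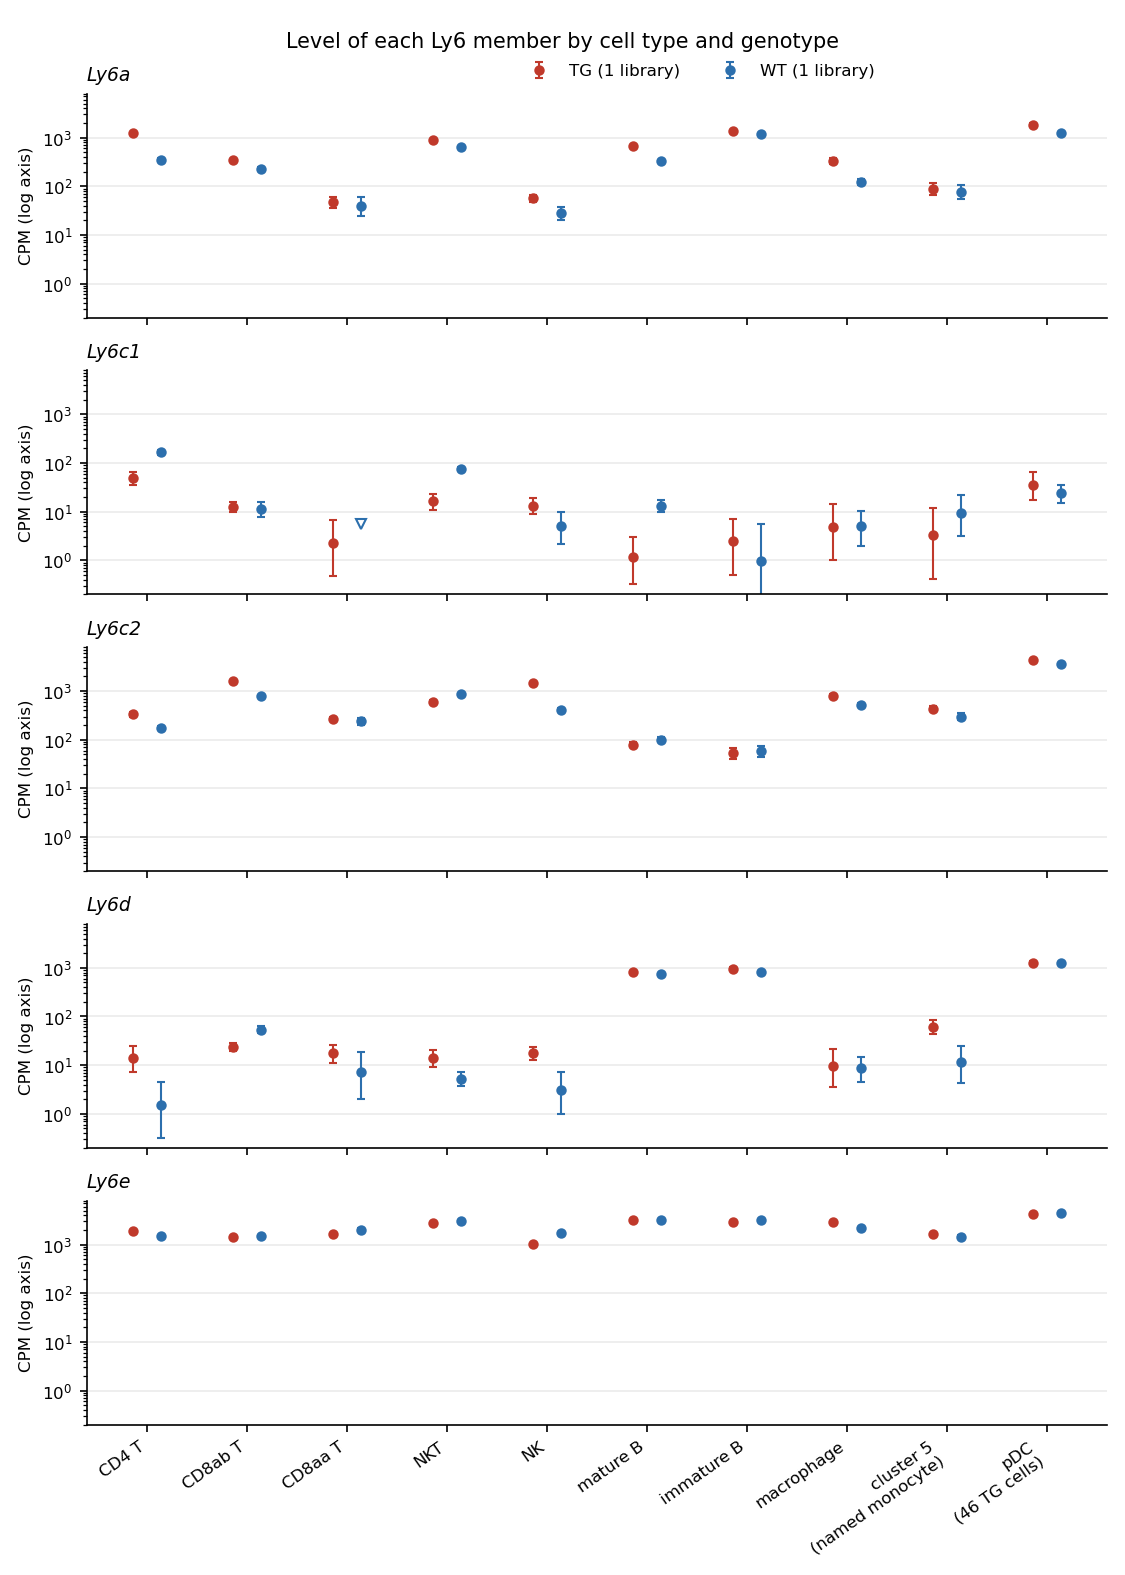
Level of each member in CPM (log axis) in 10 cell types, red for TG and blue for WT, 1 library each. Bars are 95% counting intervals, and the open triangle is the 3-count floor where no UMI was found; the widest gap of Ly6a among types with at least 50 cells in each library is in CD4 T cells (1227 against 345 CPM), and that of Ly6e is in NK (1005 against 1745).

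Ly6a, the Sca-1 gene, was highest in B cells, pDC, CD4 T and NKT cells and low in cells named NK and CD8αα T. Among types of at least 50 cells, the TG order ran from immature B (1387 CPM) through CD4 T (1227), NKT (906) and mature B (679) to CD8αβ T (341) and macrophages (335), and those last 2 did not differ beyond counting error. In WT, pDC (1228 CPM) and immature B (1181) led without differing from each other, NKT followed at 631, and CD4 T, mature B and γδ T cells (345, 330 and 299) were alike within counting error. TG pDC, with 46 cells, were at 1842 CPM (1687 to 2008), above immature B. CD4 T cells were thus above mature B cells in TG and level with them in WT.

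In CD4 T cells Ly6a was at 1227 CPM in TG (interval 1154 to 1305) and 345 in WT (320 to 372), which is 3.56-fold higher (log2 1.83, 1.69 to 1.97). A Ly6a UMI was found in 83.2% of TG and 39.0% of WT CD4 T cells. With each cell thinned to 1000 UMIs the shares were 60.9% and 22.6%, and cells with 2 to 4 UMIs made up 24.4% and 6.13%. At that depth no TG neutrophil of 54 held one, which allows a share of up to 6.60%, while 7 of them held one at full depth. The gap was present in each CD4 T cluster. Cluster 6, led by Igfbp4, Lef1 and Tcf7, genes of resting T cells, held 614 CPM in TG and 190 in WT. Cluster 9, with Cd4 among its leading genes in both libraries, held 1344 and 465. In cluster 21, led by the regulatory T cell factor Foxp3, levels were 1493 CPM over 48 TG cells and 665 over 65 WT cells. The cluster makeup also differed, since cluster 6 held 58 of 238 TG and 397 of 734 WT CD4 T cells, and with equal weight for each cluster the log2 ratio was 1.39.

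Mature B cells held Ly6a at 679 CPM in TG (652 to 708) and 330 in WT (312 to 350), 2.06-fold apart (log2 1.04, 0.94 to 1.14). Without cluster 17 the values were 685 and 321, and with equal weight for each cluster the log2 ratio was 0.88, no longer past 2-fold. Ly6a UMIs were present in 69.3% of TG and 38.2% of WT mature B cells, or 41.4% and 22.8% at 1000 UMIs per cell. Immature B cells, higher in both, differed by 1.17-fold (1387 and 1181 CPM). Macrophage-named cells differed more, at 335 CPM in TG and 124 in WT (2.71-fold, log2 1.44, 1.14 to 1.74). Most of the TG cells there were cluster 15, with Ms4a6c, Ace and Csf1r among its leading genes, where Ly6a was at 373 and 144 CPM. The 3 cells richest in Ly6a held 19.5% of its TG and 30.1% of its WT UMIs in macrophages.

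Among CD8αβ T cells the whole-type ratio of Ly6a (341 and 227 CPM, log2 0.58, 0.46 to 0.71) stood between clusters that differed. Cluster 12, led by Cx3cr1 and S1pr5 as in circulating effector cells, held 310 CPM in TG and 118 in WT. Cluster 13, led by Gzmm, Nsg2 and Cd8b1, held 144 and 41.4. In dividing cells of cluster 7, led by Pclaf, Top2a and Mki67, the order was the opposite, with 446 CPM in TG and 513 in WT (log2 -0.20, -0.36 to -0.04). Markers of other cells differed there as well, with Foxp3 at 17.4 CPM in TG and 53.3 in WT, Vpreb3 at 6.2 and 23.4, the NK receptor gene Ncr1 at 169 and 62.9 and Cd4 at 249 and 165, and their part in the member levels of cluster 7 was not tested. Dividing cells made up 319 of 1020 TG and 132 of 819 WT CD8αβ T cells, and in both libraries their Ly6a level was above that of clusters 4, 12 and 13. Cluster 18 was above the dividing cells in TG, at 710 CPM over 115 cells. In WT it was at 415 CPM over 37 cells, with an interval that overlapped that of the dividing cells. Weighted equally per cell, Ly6a in CD8αβ T cells was at log2 1.00. NKT cells held 906 and 631 CPM (log2 0.52). Across 14 clusters with at least 50 cells in each library, Ly6a was past 2-fold higher in 8 and lower in 0, where 8.26% of all gene ratios by cluster were called in either direction and 4.41% higher.

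**Figure D2:**
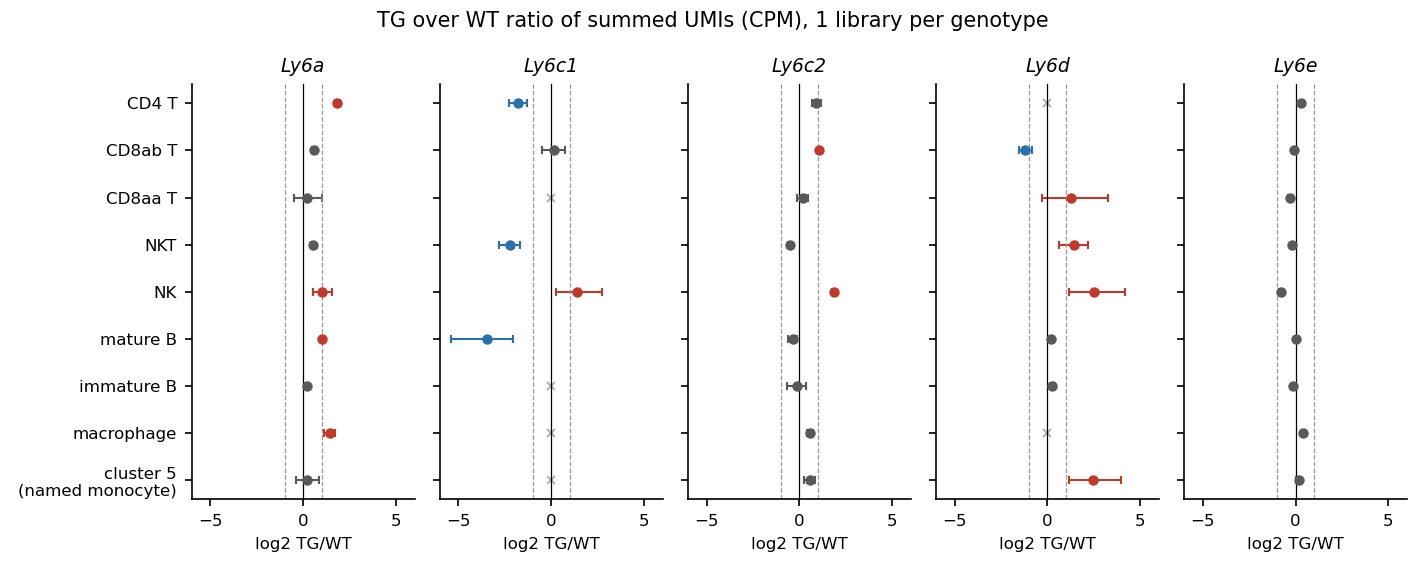
TG over WT log2 ratio of each member in 9 cell types. Points with bars are ratios with 95% counting intervals, red where past 2-fold higher in TG, blue where past 2-fold lower, and grey crosses mark pairs under 20 UMIs; the Ly6a points lie between log2 0.21 and 1.83, with intervals that cross 0 in CD8αα T cells and cluster 5, while Ly6c1 lies at -1.77 in CD4 T and -2.22 in NKT cells.

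Ly6c2 followed another order. It was highest in pDC, at 4382 CPM in TG (46 cells) and 3654 in WT (219 cells), and in the few named neutrophils, at 2459 over 54 TG cells and 2514 over 17 WT cells. Ly6c2 was low in B cells, with 48.2 and 38.8 CPM in cluster 1 and a UMI in 4.40% and 4.55% of all mature B cells at 1000 UMIs per cell. In CD8αβ T cells Ly6c2 was at 1626 CPM in TG (1592 to 1661) and 775 in WT (745 to 807), 2.10-fold apart (log2 1.07, 1.00 to 1.13). UMIs of it were found in 78.2% of TG and 46.9% of WT CD8αβ T cells, and in 59.3% and 32.6% at 1000 UMIs.

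That CD8αβ T gap was unequal between clusters. Cluster 4, led by Dapl1, Tcf7 and Lef1, held 1677 CPM in TG (interval 1584 to 1775) and 418 in WT, 4.02-fold apart, and the share of its cells with 2 to 4 UMIs was 40% in TG and 8.54% in WT. Dividing cluster 7 held 1234 and 545 CPM, and cluster 12 held 1890 and 942. Cluster 13, the highest in both libraries, differed least, at 2817 and 2306 CPM (1.22-fold). Cluster 18, led by Cd8a, Ccr9 and Cxcr6, held 729 CPM over 115 TG cells and 236 over 37 WT cells. These 5 clusters were higher in TG, and cluster 23, with 191 CPM over 15 TG cells and 298 over 76 WT cells, had overlapping intervals. With equal weight for each cluster of at least 20 cells the log2 ratio of the type as a whole was 0.91, no longer past 2-fold. In cluster 4, Lef1 was at 400 CPM in TG and 588 in WT, while Tcf7 was at 924 and 831, with overlapping intervals. Eomes, a factor of memory and effector CD8 T cells, was at 134 and 43.9. Cd44, whose protein the study used in sorting naive and memory cells, was at 150 and 26.7. The part of these genes in the Ly6c2 difference was not tested.

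**Figure D3:**
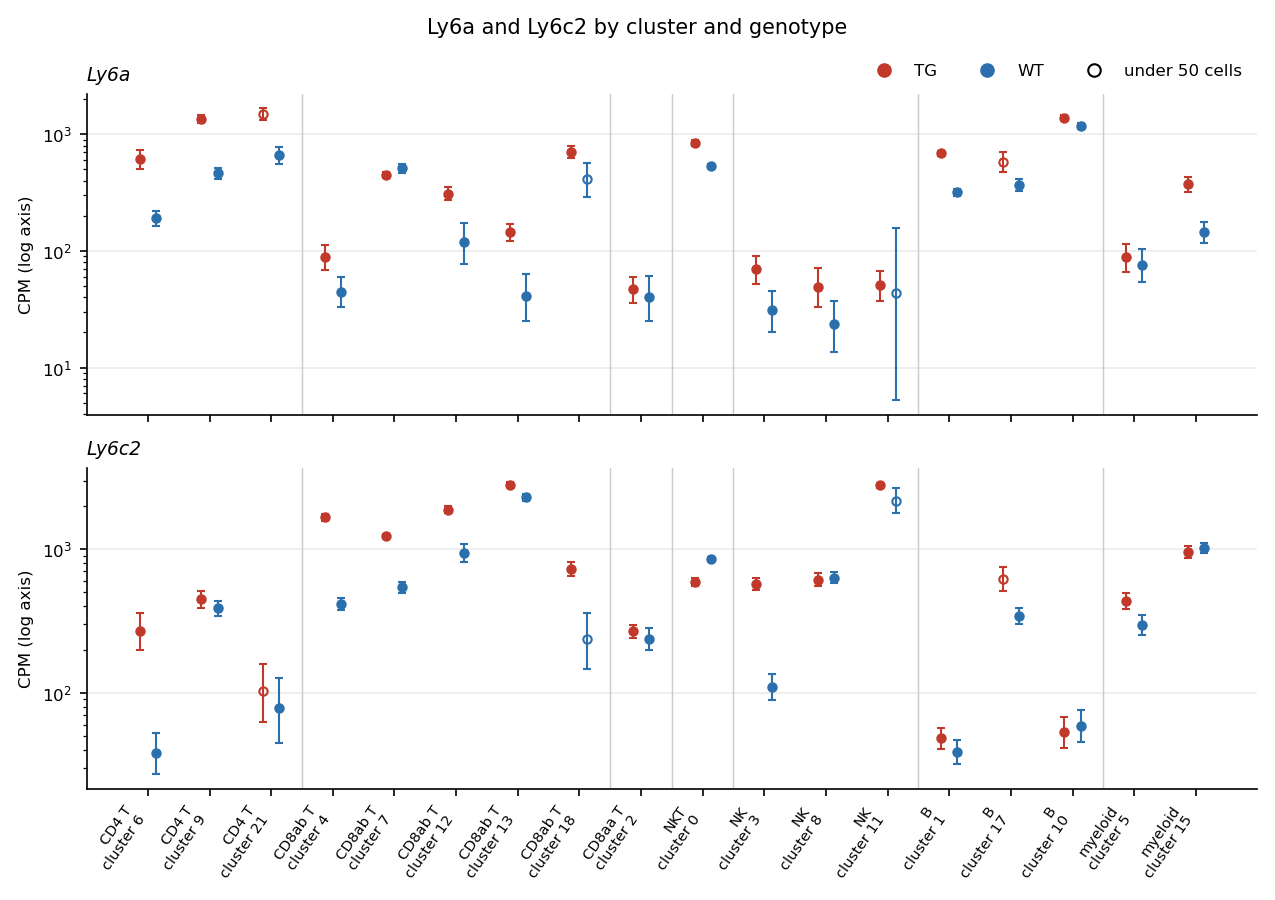
Ly6a (top) and Ly6c2 (bottom) in CPM (log axis) by cluster, red for TG and blue for WT, with 95% counting intervals and open circles for profiles under 50 cells. Ly6a is apart in all 3 CD4 T clusters, and Ly6c2 is apart in CD4 T cluster 6 (270 and 38.04 CPM), CD8αβ T cluster 4 (1677 and 418) and NK cluster 3 (575 and 110) but not in NK cluster 8 (614 and 634).

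Within CD4 T cells the widest ratio of Ly6c2 was in cluster 6, with 270 CPM in TG and 38.04 in WT (7.08-fold, log2 2.82, 2.18 to 3.48, 47 and 38 UMIs). Few cells carried it, since 3 cells held 51.1% of the TG and 36.8% of the WT UMIs. The WT value was at the level of B cells of cluster 1. Cluster 9 held 450 and 389 CPM, with an interval of the log2 ratio of -0.05 to 0.47, and most of the Ly6c2 UMIs of CD4 T cells (214 of 281 in TG, 289 of 343 in WT). It made up 132 of 238 TG and 272 of 734 WT CD4 T cells, so the whole-type gap also holds the difference in cluster makeup, and with equal weight for each cluster the log2 ratio was 0.70. Over all CD4 T cells the ratio was 1.89-fold (333 and 176 CPM, log2 0.92), under the 2-fold call, but it was past it with equal weight for each cell (log2 1.15), at 1000 UMIs per cell (1.07) and without Scrublet doublets (1.08).

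Ly6c2 was lower in TG in NKT cells, at 606 CPM (570 to 643) against 871 in WT (849 to 894), or -0.52 on the log2 scale (-0.62 to -0.43). Cd4 was also unequal between the libraries in NKT cells, at 641 CPM in TG and 161 in WT in cluster 0 and at 589 and 139.5 in cluster 19, and its part in the Ly6c2 and Ly6c1 differences of NKT cells was not tested. The share of NKT cells with a UMI was nearly the same, 45.3% and 45.8%, but at 1000 UMIs per cell it was 24.7% in TG and 32.8% in WT. Mature B cells were also lower in TG, at 78.9 and 101 CPM (-0.59 to -0.12), but not without cluster 17 (47.8 and 39.1). In cluster 15 of the macrophages Ly6c2 was level, at 963 and 1018 CPM, and cluster 5 held 436 and 297. CD8αα T cells held 268 and 238 CPM, with an interval of the log2 ratio of -0.12 to 0.47.

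Cells named NK gave the largest whole-type ratio of Ly6c2, 1489 CPM in TG (1440 to 1540) and 407 in WT (376 to 439), 3.66-fold. The ratio changed with the T cell markers noted above. Cluster 11, led by Cx3cr1 and Klrg1, held 2800 CPM over 343 TG cells and 2182 over 22 WT cells. Cluster 3 held 575 and 110 CPM, and cluster 8, with the most Eomes and with little Cd3e in both libraries, 614 and 634 (log2 -0.05, -0.25 to 0.16). A Cd3e UMI was found in 602 of 759 TG and 72 of 615 WT cells named NK, and among them Ly6c2 was at 1793 and 472 CPM. Among the others, 157 TG and 543 WT cells, it was at 494 and 395 CPM, which is log2 0.32 (0.11 to 0.54). Without any UMI of 5 T cell markers (Cd3e, Cd3d, Cd3g, Trac, Trbc2), 46 TG and 149 WT cells were left with 731 CPM in each. The 5 markers summed to 4071 CPM in TG and 1617 in WT cells named NK, so the whole-type ratio does not compare like cells.

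Ly6a in cells named NK was low, at 57.0 and 28.0 CPM (2.03-fold), and its direction turned with Cd3e. In cells with a Cd3e UMI it was at 57.2 CPM in TG and 106 in WT, and in cells without one at 56.2 and 13.97 CPM. The whole-type ratio was no longer past 2-fold with equal weight for each cluster, nor without cells holding both B lineage and T lineage UMIs.

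**Figure D4:**
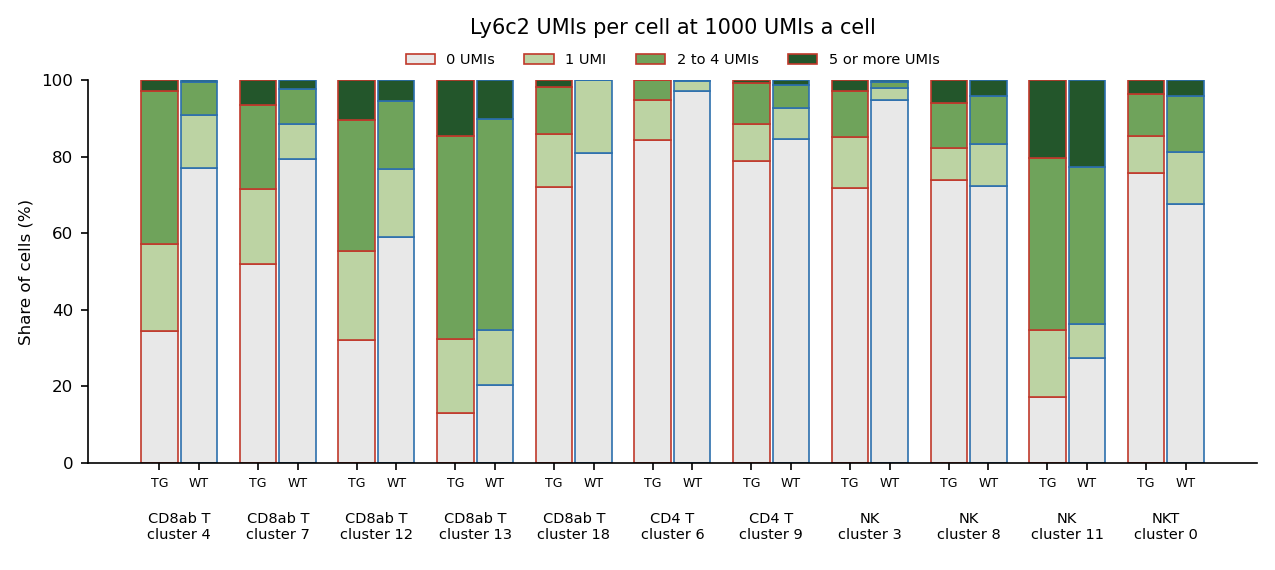
Share of cells (%) with 0, 1, 2 to 4 and 5 or more Ly6c2 UMIs at 1000 UMIs per cell, by cluster, with red frames for TG and blue for WT. In CD8αβ T cluster 4 the cells without a UMI make up 77.1% in WT and 34.5% in TG, and in CD8αβ T cluster 13 they make up 20.3% and 12.99%.

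Ly6c1 and Ly6c2 are neighbouring copies whose products share the Ly6C antigen, so an antibody to Ly6C reads both together. Their sequences are shown because the counts can separate them only where reads cover a difference. Which parts of the transcripts the reads covered was not examined. The first 90 coding bases in GENCODE vM21, with the bases that differ between both genes in capitals, hold 6 of the 9 differences in a reading frame of 393 bases (97.7% identical).
Ly6c1: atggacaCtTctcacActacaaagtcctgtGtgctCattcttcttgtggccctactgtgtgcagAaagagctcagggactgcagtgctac
Ly6c2: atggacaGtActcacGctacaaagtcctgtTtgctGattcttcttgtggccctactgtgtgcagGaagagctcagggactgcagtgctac
Over the whole transcripts, 844 and 822 bases long, 802 of 844 aligned columns were identical. Of all 100-base windows, 15.3% in Ly6c1 and 15.8% in Ly6c2 were also present in the other, and 0% of those in Ly6a, Ly6d and Ly6e were shared with a neighbour. Of 50-base windows the share was 36.7% in Ly6c1, 33.0% in Ly6c2 and 8.17% in Ly6a, where 40 windows were shared with Ly6c1. Reads in shared windows could not be assigned to 1 copy, so low counts of one copy beside high counts of the other are uncertain.

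The 250 bases before the start of each gene differed more. RefSeq sequences were at hand for 2 of the 5 members, Ly6c1 at chr15:75048838-75049087 and Ly6c2 at chr15:75111972-75112221 (GRCm38.p6, minus strand). They are printed 5′ to 3′, with capitals where, inside the stretch that both share in the alignment, a base differs from the other gene or faces a gap. The start of Ly6c1 and the end of Ly6c2 lie outside that stretch, have no partner and are in lower case.
Ly6c1: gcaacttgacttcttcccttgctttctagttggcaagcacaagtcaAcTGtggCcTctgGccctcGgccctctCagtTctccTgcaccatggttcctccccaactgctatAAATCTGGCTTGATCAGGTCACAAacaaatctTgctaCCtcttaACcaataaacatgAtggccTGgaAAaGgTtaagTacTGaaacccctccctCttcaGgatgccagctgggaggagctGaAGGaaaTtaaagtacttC
Ly6c2: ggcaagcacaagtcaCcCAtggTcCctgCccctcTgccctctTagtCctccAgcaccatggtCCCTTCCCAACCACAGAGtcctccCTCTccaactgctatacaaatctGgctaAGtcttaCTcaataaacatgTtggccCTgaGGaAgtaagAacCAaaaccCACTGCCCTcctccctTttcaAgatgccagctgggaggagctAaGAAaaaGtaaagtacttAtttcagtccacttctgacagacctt
Of 194 bases that faced a base of the other promoter, 162 were identical (83.5%), and 56 further columns held a gap. The interferon-linked motifs GAS (TTCNNNGAA) and ISRE (GAAA, any 2 bases, GAAA), searched on both strands from 250 bases before to 50 after the start, had 0 matches in either gene. Of 32851 promoters of the same length, 7.02% hold GAS and 2.98% ISRE.

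Ly6c1 was the rarest member, with 1169 UMIs in all. Its highest level was in CD4 T cells, at 48.5 CPM in TG (34.8 to 65.8, 41 UMIs) and 166 in WT (148 to 185, 323 UMIs), or -1.77 on the log2 scale (-2.28 to -1.30). NKT cells held 16.4 CPM in TG and 76.8 in WT (log2 -2.22, -2.82 to -1.68). Both ratios were past 2-fold lower in TG. In CD8αβ T cells it was level, at 12.4 and 11.4 CPM, and in CD8αα T cells 3 UMIs were found in TG and 0 in WT, where 0 of 194 cells allows a share of up to 1.88%. Within CD4 T cells, cluster 6 held 138 CPM in TG (24 UMIs) and 292 in WT (292 UMIs), and cluster 9 held 27.3 and 37.7 CPM, with overlapping intervals. Ly6c1 was among the leading genes of cluster 6 in both libraries. With equal weight for each cluster the CD4 T log2 ratio was -0.89, no longer past 2-fold. In NKT cluster 0 it was at 16.7 and 74.6 CPM.

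The other Ly6c1 calls rested on few or mixed cells. Of 48 WT UMIs in mature B cells, 46 lay in cluster 17, which also carried Cd3e, and without it each library held 2. In cells named NK 30 and 8 UMIs made 13.1 and 5.0 CPM, with 15.4 and 16.3 CPM among cells with a Cd3e UMI.

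Set against each other, the pair changed its make-up by cell type and library. Ly6c1 made up 12.7% of Ly6c1 and Ly6c2 UMIs in TG CD4 T cells (9.29 to 16.9%) and 48.5% in WT (44.6 to 52.4%). In cluster 6 it made up 33.8% in TG (23.0 to 46.01%) and 88.5% in WT (84.5 to 91.7%). That TG share rests on 24 Ly6c1 and 47 Ly6c2 UMIs, of which the 3 richest cells held 45.8% and 51.1%. Cluster 9 held 13 Ly6c1 and 214 Ly6c2 UMIs in TG and 28 and 289 in WT. Cluster 21 held 4 and 20 in TG and 3 and 16 in WT. Cluster 6 made up 58 of 238 TG and 397 of 734 WT CD4 T cells. The whole-type gap thus also holds the difference in cluster makeup. In NKT cells Ly6c1 made up 2.64% and 8.10%. In CD8αβ T cells the share was 0.76% and 1.45%, and in pDC, where Ly6c2 was highest, 0.81% and 0.65%. At 1000 UMIs per cell, 98 WT CD4 T cells held Ly6c1, 56 held Ly6c2 and 4 held both, where multiplying both shares gives 7.48. Both genes lay mostly in different clusters of these cells. Ly6c1 was found in 22.7% of WT cluster 6 and 2.21% of cluster 9 cells, and Ly6c2 in 2.77% and 15.4%. The product ignores that split, so it cannot show whether the genes avoid each other within cells. In TG CD4 T cells 10 held Ly6c1, 42 held Ly6c2 and 1 held both. In WT NKT cells 59 held both, where the product gives 43.0. These counts are a description of single libraries.

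**Figure D5:**
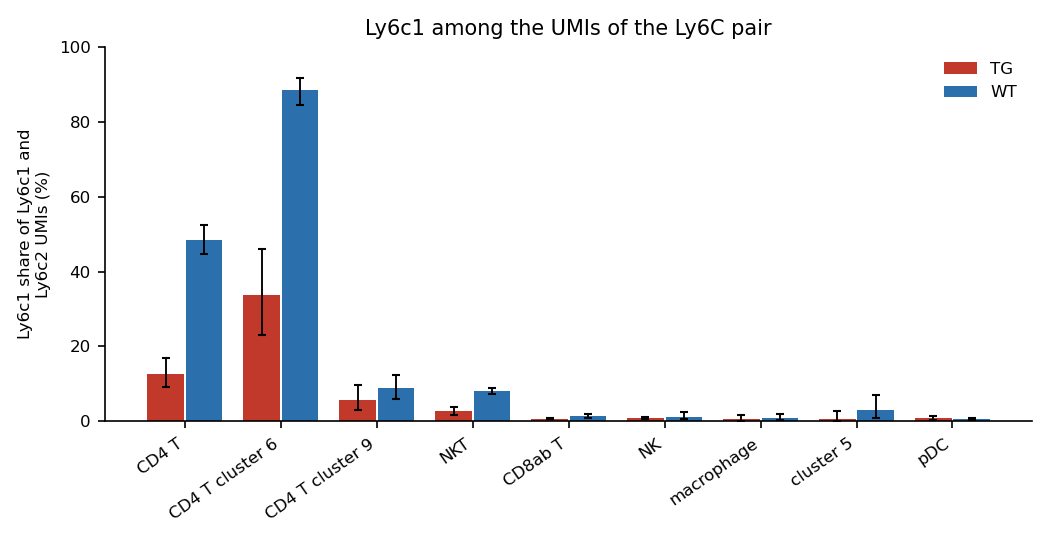
Ly6c1 as a share (%) of the UMIs of Ly6c1 and Ly6c2 together, by cell type and for 2 CD4 T clusters, with bars for TG (red) and WT (blue) and 95% binomial intervals. The share is 88.5% in WT and 33.8% in TG for CD4 T cluster 6, and 0.76% and 1.45% in CD8αβ T cells.

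Ly6d kept to B cells and pDC. Mature B cells held 839 CPM in TG and 749 in WT, and 861 and 853 without cluster 17. Immature B cells held 966 and 802, and pDC 1254 and 1239. Its level in these cells was thus within 2-fold between the libraries, with log2 ratios of 0.16, 0.27 and 0.02. In immature B cells the TG level was higher beyond counting error (911 to 1022 against 748 to 859 CPM).

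In most other cells Ly6d was low and its ratios rested on few UMIs, apart from cluster 26, filed under other (280 CPM over 32 TG cells and 603 over 14 WT cells), and dividing cluster 7 of WT. Jchain, the immunoglobulin joining chain gene, was at 28850 CPM in TG and 24766 in WT in cluster 26. In cluster 7 Jchain was at 30.6 and 782 CPM and in cluster 5 at 323 and 7.65, and its part in the Ly6d levels was not tested. In TG Ly6d was at 14.2 CPM in CD4 T and NKT cells, 17.4 in CD8αα T and 17.5 in NK, and in WT at 1.5, 5.3, 7.3 and 3.1. Cd79a, a B cell receptor subunit, was likewise higher in TG in the same cells, at 72.2 against 31.8 CPM in CD4 T, 56.6 against 18.5 in NKT and 78.0 against 31.1 in NK. Per 100 Cd79a UMIs there were 18.6 Ly6d UMIs in TG mature B cells (17.9 to 19.4), 22.1 in immature B, 19.7 in CD4 T, 25 in NKT (15.4 to 39.1), 23.5 in CD8αα T, 24.0 in CD8αβ T and 22.5 in NK (15.5 to 31.8). In WT there were 19.1 in mature B and 23.5 in immature B, but 4.84 in CD4 T (0.97 to 14.8), 10 in NK (3.11 to 24.9), 28.7 in NKT (19.1 to 42.1) and 73.7 in CD8αβ T (59.9 to 90.5). In TG pDC there were 1304. Among cells with no Cd79a UMI, 5 lymphocyte types other than B had at least 50 cells in each library, which leaves out γδ T cells. Ly6d was at 12.02 to 16.5 CPM in these types in TG, and in WT at 0.55 to 3.85 in 4 of them and at 14.03 in CD8αβ T. The 3 calls higher in TG in NKT, CD8αα T and NK, and that in cluster 5 (61.9 and 11.5 CPM, 70.3% of the TG UMIs in 3 cells), stood beside a higher level of Cd79a in TG (196 against 103 CPM in cluster 5), by a smaller factor than Ly6d in NK and cluster 5, and its part in them was not tested. The CD8αα T ratio rested on 23 and 4 UMIs, with an interval of the log2 ratio of -0.29 to 3.25, and without the 3 richest cells of each library no UMI was left in WT. CD8αβ T cells were the exception in direction, at 23.4 CPM in TG and 53.8 in WT, where 3 cells held 47.9% of the WT UMIs, most of them in dividing cluster 7 (35.6 and 151 CPM). At 1000 UMIs per cell that log2 ratio was 0.12.

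Ly6e was the most widely detected member, with a UMI in 92.4% of TG and 94.9% of WT cells. In TG its level ran from 4218 CPM in pDC (46 cells) and 3264 in mature B to 1005 in cells named NK and 362 in neutrophils. In WT it ran from 4441 in pDC and 3220 in mature B to 1439 in cluster 5 and 620 in neutrophils (17 cells). Mature B cells had the same level within 1.01-fold (3264 and 3220, log2 0.02, -0.02 to 0.06). No cell type was past 2-fold in either direction. Ly6e was higher in TG in macrophages (2949 and 2225, log2 0.41) and CD4 T cells (1888 and 1523, 0.31), and lower in NK (1005 and 1745, -0.80), CD8αα T (1650 and 2025, -0.30) and NKT cells (2719 and 3086, -0.18). The NK difference was of like size with and without a Cd3e UMI, at -0.87 and -0.83 on the log2 scale. By cluster Ly6e was at 1624 CPM in TG and 2455 in WT in NK cluster 3. Cluster 11 held 616 and 886 CPM and cluster 8 held 778 and 984. Cluster 11, the lowest of them in TG, had 343 TG and 22 WT cells, so the whole-type gap also holds the difference in cluster makeup. Among 14 clusters 1 was past 2-fold, the Cx3cr1-led CD8αβ T cluster 12, at 479 CPM in TG and 1166 in WT (log2 -1.28, -1.52 to -1.04). In that cluster Ly6a and Ly6c2 were both past 2-fold higher in TG, where 12.6% of all genes were called (8.74% higher, 3.85% lower). Markers differed there too, with Cx3cr1 at 1026 CPM in TG and 237 in WT and Klrg1 at 855 and 168. Tcf7 was at 236 and 542 CPM and Lef1 at 83.0 and 173. The part of these differences in the member levels of cluster 12 was not tested. Ly6e in dividing cluster 7 was lower in TG as well (1526 and 2318), while in cluster 4 it was higher (1312 and 968).

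Other genes of the Ly6/uPAR family were mostly rare. Of 32 on the list, 11 were in the table and 8 had at least 100 UMIs. Ly6i, a close relative of Ly6a, was at 337 CPM in TG and 50.7 in WT macrophages (6.63-fold), with 205 and 67 UMIs in cluster 15 (463 and 98.6 CPM). Of its 50-base windows 3.34% were shared with a neighbour, most often Ly6a. Ly6g, the neutrophil marker, was at 262 CPM in TG and 86.1 in WT in cluster 5 and at 1559 and 990 in named neutrophils, and Cd177, another neutrophil surface protein, at 105 and 49.7 in cluster 5. Plaur, the urokinase receptor, was at 784 and 593 CPM there. Ly6g5b was lower in TG in NK (3.9 and 16.2 CPM) and at 36.2 and 58.4 in NKT cells, and Lypd6b was lower in CD4 T (2.4 and 9.8), CD8αβ T (2.5 and 13.05) and NKT cells (2.3 and 8.8). Lypd6b had 32 UMIs in TG and 138 in WT over all cells, so these ratios rest on few UMIs. Of all genes, 3.28% were past 2-fold lower in CD4 T, 3.05% in CD8αβ T, 2.71% in NKT and 4.3% in NK. Ly6k and Lynx1 were past 2-fold in 0 of the 9 cell types, with Lynx1 at 23.5 and 16.1 CPM in mature B and Ly6k at 18.8 and 14.8 in immature B cells. The antibody to Ly6G gave at most 3 counts in any cell type, 1 of 87164 antibody counts in TG neutrophils, so the protein could not be set beside the transcripts.

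As Ly6a and Ly6e are interferon-inducible, 28 interferon-response genes were counted in the same cells. In mature B cells 6 of 28 were past 2-fold higher and 0 lower in TG, with a median log2 ratio of 0.55 against -0.04 over all genes, of which 1.94% were higher. Psmb9, an immunoproteasome subunit, was at 243 and 87.7 CPM there and Gbp2, an interferon-induced GTPase, at 65.2 and 20.3. Macrophages had 9 of 28 higher (4.52% of all genes), with a median of 0.71 against 0.07. CD4 T cells had 3 of 27 higher (5.41% of all), with a median of 0.59 against 0.08 and with Isg20, an exonuclease, at 54.5 and 18.5 CPM. These were 3 of the 4 types where Ly6a was past 2-fold, while Ly6e was not past 2-fold in any cell type. The part of interferon in the Ly6a and Ly6e ratios was not tested. Immature B cells had 2 of 25 higher (2.96% of all) and a median of 0.50, and CD8αα T cells 2 higher and 1 lower of 26 (5.37% of all higher) and 0.20. Cluster 5 had the most, 16 of 27 higher (5.11% of all) with a median of 1.43, and Gbp2 at 759 and 86.1 CPM. Ly6a there was at 88.6 and 76.5 CPM, a value that rests on few cells, since 3 cells held 57.5% of the WT UMIs, and without Scrublet doublets its log2 ratio was 1.77, past 2-fold. NKT cells had 0 of 28 past 2-fold (4% of all genes higher, 2.71% lower) and a median of 0.23, CD8αβ T cells 1 of 28 (4.15% and 3.05%) and 0.12, and cells named NK 1 higher and 2 lower of 27 (3.92% and 4.3%) and 0.14.

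Other GPI-anchored proteins of leukocytes, 14 on the list, were counted in the same way. In CD4 T cells 0 of 8 were higher and 2 lower, where 3.28% of all genes were lower, with a median log2 ratio of 0.25 against 0.08 over all genes. They were Cd55, an inhibitor of complement, at 28.4 and 88.3 CPM and Plaur at 4.7 and 9.8, the latter on 4 and 19 UMIs with an interval of the log2 ratio of -3.06 to 0.55. Mature B cells had 0 of 9 higher and 3 lower (2.81% of all genes), with a median of -0.46, among them the T cell antigen gene Thy1 (48.8 and 146 CPM). But in cluster 1 of them 1 of 8 was higher, Cd160, and 0 were lower (2.35% and 1.58% of all genes), with a median of -0.08. In CD8αβ T cells 1 of 9 was higher, Cd160 (169 and 83.8 CPM), a receptor of cytotoxic lymphocytes, and 3 were lower (3.05% of all genes). In NKT cells 1 of 9 was lower, Nt5e, the ecto-nucleotidase CD73 (6.8 and 28.3 CPM), and 1 higher, Plaur (11.3 and 2.6), where 2.71% and 4% of all genes were. In macrophages 2 of 10 were lower, among them Cd14, a co-receptor for lipopolysaccharide (8.2 and 145 CPM, and 11.3 and 85.3 in cluster 15), and 1 was higher, Cd160 (65.4 and 16.4), where 5.07% and 4.52% of all genes were. Cluster 5 had 2 of 11 higher, Ly6g and Cd48, and 2 lower (5.11% and 5.51% of all genes). In cells named NK 0 of 9 were higher and 2 lower, Nt5e and Cd55 (4.3% of all genes lower), and in CD8αα T cells 0 of 7 were higher and 1 lower, Nt5e (2.46%).

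Profiles over 21 combinations of cell type and library with at least 50 cells were compared on log2(CPM + 10) with 7855 genes. The closest to Ly6d were Iglc3 (Pearson r 0.99), Blnk (0.97) and Spib (0.96), genes of B cells and, for Spib, also of pDC. Ly6c1 was closest to Cd6 (0.73) and Izumo1r (0.72), both T cell surface receptors. The genes nearest to Ly6a were Nek7, Rps9 and Xxylt1 (each 0.83), to Ly6c2 Lamtor4 (0.76), Pxylp1 (0.75) and Lrrc58 (0.72), and to Ly6e Mga (0.86), Slc30a5 (0.85) and Morf4l2 (0.84). Between members r was 0.69 for Ly6a and Ly6e, 0.56 for Ly6a and Ly6d, 0.30 for Ly6c1 and Ly6c2 and -0.39 for Ly6c2 and Ly6e. The profiles share libraries and cell types, so these values are descriptions only.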

How the data were processed

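Single hepatic CD45+ cells were sequenced with BD Rhapsody chemistry. The authors mapped reads to mm10 with STAR inside the BD pipeline and deposited UMI counts per gene and cell. A filtered table of 13528 genes and 11929 cells was also deposited, with clusters and cell type names that the authors made in Seurat after joining both datasets by canonical correlation. The filter on cells is not given in the sources used here. Antibody values were deposited as UMI counts and as a natural log (centred ratio) per cell, and the deposited percent of mitochondrial UMIs was not used. A deposited table of normalised expression was not used.

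Levels were summed UMI counts per 1000000 UMIs (CPM) with exact Poisson intervals. Shares of cells and of UMIs had exact Clopper-Pearson intervals, also after thinning each cell to 1000 UMIs (0 cells left out), and TG over WT log2 ratios had exact conditional binomial intervals. A share of 0 carries its upper bound. A ratio needed 50 cells in each library and 20 UMIs over both, and was called past 2-fold. The ratio script was tested on simulated data. The 5 members were named in every cell type; other genes were named by rule: family genes with at least 100 UMIs, the 3 most alike profiles among genes with at least 500 UMIs, and list genes past 2-fold. Members and lists were chosen with earlier results of these data known. Cell markers given beside a result, the split by Cd3e, the split by cluster 17 and the Ly6d to Cd79a ratio were chosen after values were seen. Alternatives were TMM scaling, other totals, cell, cluster and depth weights, removal of doublets or of the richest cells, and counts of the library files. Doublets were kept in the main values. Scrublet marked 0.84% of TG and 3.32% of WT cells, and mixed cells, holding 2 or more UMIs from B lineage and from T lineage genes, made up 13.5% and 6.06%. Analyses used Python 3.11.15, numpy 2.4.6, scipy 1.17.1, pandas 2.3.3, scanpy 1.11.5, Biopython 1.88 and edgeR 4.0.16 (TMM factors) in R 4.3.3. Leave-one-out could not be run, since no group has a second library.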

Additional observations from a re-analysis of the deposited data

Results flagged for a closer look

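For 4 members the TG over WT ratio pointed in opposite directions in different cell types, with counting intervals on either side of 0, and for 3 of them a ratio was past 2-fold. The differences between cell types were not tested. The share of all genes that meet the same rule is not given here, so the count is no measure of the family. For Ly6e, past 2-fold in neither, the log2 ratio was 0.41 in macrophages and -0.80 in cells named NK. For Ly6c2 the log2 ratio was 1.87 in cells named NK and -0.52 in NKT cells. For Ly6c1 it was 1.40 in cells named NK and -3.49 in mature B cells, where nearly all WT UMIs lay in cluster 17. For Ly6d it was 2.49 in cells named NK and -1.20 in CD8αβ T cells, at low levels in both. The latter ratio changed sign at 1000 UMIs per cell. Cells named NK differed in T cell markers between the libraries. Without cells with a Cd3e UMI the NK log2 ratio was 0.93 for Ly6c1, 0.32 for Ly6c2 and 3.09 for Ly6d. The NK ratio of Ly6c1, on 30 and 8 UMIs, was 0.70 at 1000 UMIs per cell and 0.24 with equal weight for each cluster, and that of Ly6c2 was 0.45 with equal cluster weight.

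Cells of the library files without a genotype name, 5379 in the first pool and 16829 in the second, entered no TG over WT ratio. Of them, cells with at least 3 Cd79a UMIs and no Cd3e UMI were set beside named WT cells under the same rule (507 CPM of Ly6a and 104 of Ly6c2). In the first pool, which held TG and IFN-γ ARE-Del-/- mice, 1069 such cells held Ly6a at 1175 CPM (1140 to 1212) and Ly6c2 at 288 CPM (271 to 307), both over 2-fold above the named WT cells. In the second pool, 1030 such cells held 785 and 189 CPM. Named TG cells, captured in the same library as the cells of the first pool, held 860 and 115 CPM. The named WT cells came from the other library, so the gap of the first pool to them cannot be told apart from the library.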

How the results depend on the processing

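Against 11 calls higher and 4 lower in the main values, counts were the same with TMM scaling, with totals without ribosomal protein and mitochondrial genes, and with the counts of the library files. With equal weight for each cluster 6 were higher and 3 lower, and the calls of Ly6a, Ly6c1 and Ly6c2 in cells named NK, Ly6a in mature B, Ly6c1 in CD4 T and Ly6c2 in CD8αβ T cells were lost. A minimum of 100 UMIs left 6 higher and 3 lower. Without mixed cells, which hold both B lineage and T lineage UMIs, 11 were higher and 2 lower, Ly6a in NK, Ly6c1 in mature B and Ly6d in CD8αβ T cells lost their calls, and Ly6c1 in mature B cells turned to a log2 ratio of 1.06. Thinned to 1000 UMIs per cell 11 were higher and 3 lower, Ly6c1 in NK lost its call and Ly6d in CD8αβ T cells turned to 0.12. Without the 3 richest cells 10 of 38 were higher and 3 lower, since Ly6d in CD8αα T cells then had no UMI in WT. Ly6d in CD8αβ T cells also lost its call there (-0.65) and with equal weight for each cell (-0.35), where 13 were higher and 3 lower. Without Scrublet doublets 13 were higher and 4 lower. Ly6c2 in CD4 T cells gained a call when thinned, with equal cell weight and without Scrublet doublets, as did Ly6a in CD8αβ T cells with equal cell weight and Ly6a in cluster 5 without Scrublet doublets. The 2 alternatives for NK and 1 for mature B cells were chosen after seeing the data: without cells with a UMI of 5 T cell markers 8 were higher, without cells with a Cd3e UMI 9, and without cluster 17 the lower calls were 3. Of 105 levels, 44 moved beyond their counting interval when thinned and 47 without the 3 richest cells. The causes were not tested. No paired analysis was possible because each genotype has 1 library and the labels give no replicate numbers. Depth limits Ly6c1 and Ly6d outside their main cells, where most values rest on under 50 UMIs.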

Other observations

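Cells without a genotype name also carried the members. Among unnamed cells with at least 2 Cd3e UMIs and no Cd79a UMI, 1992 cells of the first pool held Ly6a at 474 CPM, Ly6c1 at 22.9 and Ly6c2 at 838, and 10316 cells of the second pool, which held WT and P40-/-IL-2Ra-/- mice, held 418, 10.2 and 998 CPM. Named cells under the same rule held Ly6a at 429 CPM in TG and 462 in WT, Ly6c1 at 13.4 and 60.5, and Ly6c2 at 1229 and 713. Ly6c1 in these unnamed cells was thus below the named WT cells in both pools, including the pool captured with WT. The rule does not separate T and NKT subsets, whose Ly6c1 levels differed in named cells. The makeup of the unnamed cells is not known. Ly6e was at 1836 CPM in the first and 1260 in the second pool. Which strain each of these cells came from was not analysed here.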
